A study of Homo sapiens with 4 samples.

Results

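FOXK2 peaks in OVCAR-5 cells were called far from RefSeq genes as well as at promoters, and the intergenic peaks that lay more than 100 kb from the nearest RefSeq transcription start site (TSS) were examined here as a class. These distal intergenic peaks were chosen by position only: the deposited annotation had to read plain intergenic, with no repeat or CpG island named, and the distance to the nearest TSS had to be above 100000 bp. They made up 786 of 12471 peaks in replicate 1 (6.30%) and 1854 of 27281 peaks in replicate 2 (6.80%). The data came from FOXK2 ChIP-seq of OVCAR-5 cells, a human ovarian cancer line labelled high grade serous and from ascites, at passage 4 to 6, grown in ordinary culture medium with no treatment or genetic change. Both libraries were biological replicates of this single condition, so differences between conditions could not be examined. Each peak spanned 211 bases in replicate 1 and 257 bases in replicate 2.

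FOXK2 is a forkhead transcription factor, and its winged-helix domain binds DNA at sites built around the forkhead core, for which the heptamer TGTTTAC was used here. Genes that control development often lie in gene-poor regions that carry many distal enhancers, elements that can act on a promoter over long distances by looping. Distal enhancers of epithelial cells are often occupied by AP-1, a dimer of FOS and JUN family proteins that binds TGACTCA, and by TEAD, RUNX and C/EBP factors, while ETS factor sites are common in promoters. The nearest TSS names a peak in the text below and does not show which gene, if any, the site acts on.

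The peaks below are the strongest distal peaks found in both replicates, leaving out 1 chromosome whose sequence is not shown, the strongest with the AP-1 heptamer and without the forkhead heptamer, and the farthest from a TSS. They are shown so that the range of sequence under these peaks can be seen, from those with a forkhead heptamer near the centre to those with neither heptamer. Each is the replicate 1 peak on the forward strand of hg38. Capitals mark TGTTTAC and TGACTCA on either strand, so that the forkhead heptamer can also read GTAAACA and the AP-1 heptamer TGAGTCA. Names give the nearest gene and the distance in bp from its TSS to the peak centre, negative when the peak is upstream. The first 4 are the peak at chr7:41580341-41580551 near INHBA-AS1, that at chr7:16989976-16990186 near AGR3, that at chr2:234823836-234824046 near SH3BP4 and that at chr17:68793993-68794203 near ABCA8.
INHBA-AS1 -113473: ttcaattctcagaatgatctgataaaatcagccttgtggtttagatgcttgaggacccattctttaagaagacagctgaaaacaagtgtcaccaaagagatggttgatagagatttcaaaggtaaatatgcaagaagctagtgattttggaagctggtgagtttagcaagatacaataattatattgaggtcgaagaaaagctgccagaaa
AGR3 -108092: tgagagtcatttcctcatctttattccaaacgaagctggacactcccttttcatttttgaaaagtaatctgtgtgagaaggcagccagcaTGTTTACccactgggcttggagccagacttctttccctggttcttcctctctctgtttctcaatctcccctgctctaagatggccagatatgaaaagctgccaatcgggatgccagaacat
SH3BP4 -128043: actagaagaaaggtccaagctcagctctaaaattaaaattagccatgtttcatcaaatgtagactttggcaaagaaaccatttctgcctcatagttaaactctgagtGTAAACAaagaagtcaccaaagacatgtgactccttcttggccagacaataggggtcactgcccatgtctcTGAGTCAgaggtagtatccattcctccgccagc
ABCA8 161294: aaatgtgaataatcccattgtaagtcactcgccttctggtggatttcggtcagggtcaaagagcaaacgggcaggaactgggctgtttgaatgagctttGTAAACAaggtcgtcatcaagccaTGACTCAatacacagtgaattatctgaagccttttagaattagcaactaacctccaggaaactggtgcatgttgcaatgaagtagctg

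The next 3 held the AP-1 heptamer and no forkhead heptamer in either replicate's window, and lay at chr3:16060327-16060537 near GALNT15, chr7:110318048-110318258 near EIF3IP1 and chr16:77585988-77586198 near NUDT7.
GALNT15 -113890: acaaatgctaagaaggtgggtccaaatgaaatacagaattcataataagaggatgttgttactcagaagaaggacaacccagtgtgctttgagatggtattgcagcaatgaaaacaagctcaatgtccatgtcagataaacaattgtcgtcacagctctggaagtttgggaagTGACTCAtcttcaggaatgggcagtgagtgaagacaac
EIF3IP1 -357940: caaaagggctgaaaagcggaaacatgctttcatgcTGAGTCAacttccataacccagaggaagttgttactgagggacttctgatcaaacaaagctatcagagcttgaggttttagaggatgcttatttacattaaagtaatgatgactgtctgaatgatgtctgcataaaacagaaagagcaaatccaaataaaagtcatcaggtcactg
NUDT7 -136399: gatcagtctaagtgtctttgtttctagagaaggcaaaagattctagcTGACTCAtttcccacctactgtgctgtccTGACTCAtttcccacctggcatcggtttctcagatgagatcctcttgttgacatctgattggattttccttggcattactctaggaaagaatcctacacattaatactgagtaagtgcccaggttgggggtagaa

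The 2 farthest peaks found in both replicates lay at chr16:63315333-63315543, upstream of CDH8, and chr5:92552268-92552478, named for NR2F1-AS1.
CDH8 -1278603: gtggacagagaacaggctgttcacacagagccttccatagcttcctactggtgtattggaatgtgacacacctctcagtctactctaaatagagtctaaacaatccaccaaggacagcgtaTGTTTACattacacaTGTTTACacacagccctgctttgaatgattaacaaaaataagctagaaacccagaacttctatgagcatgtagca
NR2F1-AS1 1018970: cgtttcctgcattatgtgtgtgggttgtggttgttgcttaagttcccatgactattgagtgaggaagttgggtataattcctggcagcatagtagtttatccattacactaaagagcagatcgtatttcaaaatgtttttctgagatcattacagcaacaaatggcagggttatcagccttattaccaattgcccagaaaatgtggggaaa

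Of these 9 peaks, the AGR3 peak held 1 forkhead heptamer, the SH3BP4 and ABCA8 peaks held 1 forkhead and 1 AP-1 heptamer each, and the CDH8 peak held 2 copies of the forkhead heptamer. The NUDT7 peak held 2 copies of the AP-1 heptamer. The INHBA-AS1 and NR2F1-AS1 peaks held neither, and the INHBA-AS1 peak held 1 copy of the RUNX octamer TGTGGTTT. Copies of the TEAD hexamer GGAATG were found in the SH3BP4, GALNT15 and CDH8 peaks, 1 in each.

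Most distal peaks of the shorter list were found again in the longer one. In replicate 1, 571 of 786 distal peaks shared 1 bp or more with a peak called in replicate 2 (72.6%, with a Wilson 95% interval from 69.4% to 75.6%), beside 74.9% of all peaks in that list. In replicate 2, whose list is longer, 552 of 1854 did so (29.8%, 27.7% to 31.9%), beside 34.2% of all. The same members moved 10000 bp to each side overlapped a peak of the other list in 9 of 1572 positions (0.573%) and 9 of 3708 positions (0.243%). Peaks of one list come from 1 library and are not replicates, so the intervals and tests here describe 1 list at a time and cover counting error only. The second list is a limited check. Of the overlapped distal peaks, 539 of each list were the same pairs, with centres a median of 30 bp apart, so their overlap and sequence were largely shared between the lists.

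The overlapped share of distal peaks was set against 3 other classes: plain intergenic peaks at 20 to 100 kb, plain intergenic peaks within 20 kb, and promoter peaks. Against intergenic peaks at 20 to 100 kb, the difference was -1.94 percentage points in replicate 1 (95% interval -5.94 to 1.99, Fisher's exact adjusted p = 0.392, two-sided as in every such test here) and -3.15 points in replicate 2 (-5.85 to -0.423, Fisher's exact adjusted p = 0.0373). Against intergenic peaks within 20 kb it was -4.28 points in replicate 1 (95% interval -8.49 to -0.0627, Fisher's exact adjusted p = 0.0721) and -6.08 points in replicate 2 (-9.08 to -3.06, Fisher's exact adjusted p = 0.000215). The replicate 1 value lay near the threshold and passed it, unadjusted, with the limit at 200000 bp (-6.35, Fisher's exact p = 0.0191), with overlap counted from 50% of the length (-5.29, p = 0.0210) and with centres within 100 bp (-5.83, p = 0.0120). The replicate 2 value no longer passed with both lists cut to their higher-scoring 50% before overlap was counted (-2.30, Fisher's exact p = 0.346). Against promoter peaks the difference was -6.50 points in replicate 1 (Fisher's exact adjusted p = 0.000377) and -14.2 points in replicate 2 (Fisher's exact adjusted p = 4.76e-26). Distal peaks were therefore found again less often than promoter peaks in both lists, while the gap to peaks at 20 to 100 kb passed the threshold in replicate 2 alone. With the longer list limited to its 12471 highest scores, the replicate 2 differences were 0.664 points from peaks at 20 to 100 kb, 0.990 from peaks within 20 kb and -0.479 from promoter peaks (unadjusted Fisher's exact p = 0.775, 0.720 and 0.832), while in replicate 1 they were -2.01, -2.38 and -10.0 points (unadjusted Fisher's exact p = 0.377, 0.339 and 3.14e-07).

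Distal peaks were also weaker than promoter peaks. The peak score is the tag count at a peak as scaled by HOMER to its library, so it was used as a rank within each list. The median score of distal peaks was 5.66 in replicate 1 (quartiles 4.53 and 7.73, range 3.21 to 38.5) and 6.69 in replicate 2 (4.91 and 9.82, range 3.27 to 81.2), against list medians of 5.85 and 7.29. In replicate 1, 44.7% of distal peaks scored above the list median, against 58.5% of promoter peaks (Fisher's exact adjusted p = 2.23e-11). The shares in replicate 2 were 42.5% and 65.2% (Fisher's exact adjusted p = 1.65e-62). Against peaks at 20 to 100 kb the difference in this share was -4.18 points in replicate 1 (95% interval -8.63 to 0.299, Fisher's exact adjusted p = 0.0991) and -5.04 points in replicate 2 (-7.95 to -2.12, Fisher's exact adjusted p = 0.00177), where it no longer passed among the higher-scoring 50% (-3.10) or with lists of equal length (-2.88). In alternatives that shortened a list, here and below, the median was taken anew in the shortened list. Against peaks within 20 kb the difference was -3.27 points (Fisher's exact adjusted p = 0.236) and -8.78 points (Fisher's exact adjusted p = 2.53e-07). The first of these passed, unadjusted, without chromosome 8 (-5.87, Fisher's exact p = 0.0233) and with repeats included (-4.55, p = 0.0254), and the second no longer passed among the higher-scoring 50% (-3.40, Fisher's exact p = 0.163) or with lists of equal length (-3.24, p = 0.209). All scores below 10 were whole multiples of 0.189 in replicate 1 and 0.149 in replicate 2 to within 0.1 of a step, and with each step read as 1 tag, the weakest distal peak held 17 and 22 tags and the median one 30 and 45. Only 1 distal peak in each list stood among the 100 highest scores. This was 0.127% and 0.0539% of the class, against 0.826% and 0.370% of all peaks. Peaks at 20 to 100 kb numbered 4 and 3 there, those within 20 kb 2 and 1, and promoter peaks 61 and 66. The single distal peaks of both lists overlapped each other. They lay 352 kb upstream of SNTB1, a syntrophin gene of chromosome 8, with scores of 38.5 and 81.2 at ranks 40 and 31. This pair was named after its values were seen.

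**Figure D1:**
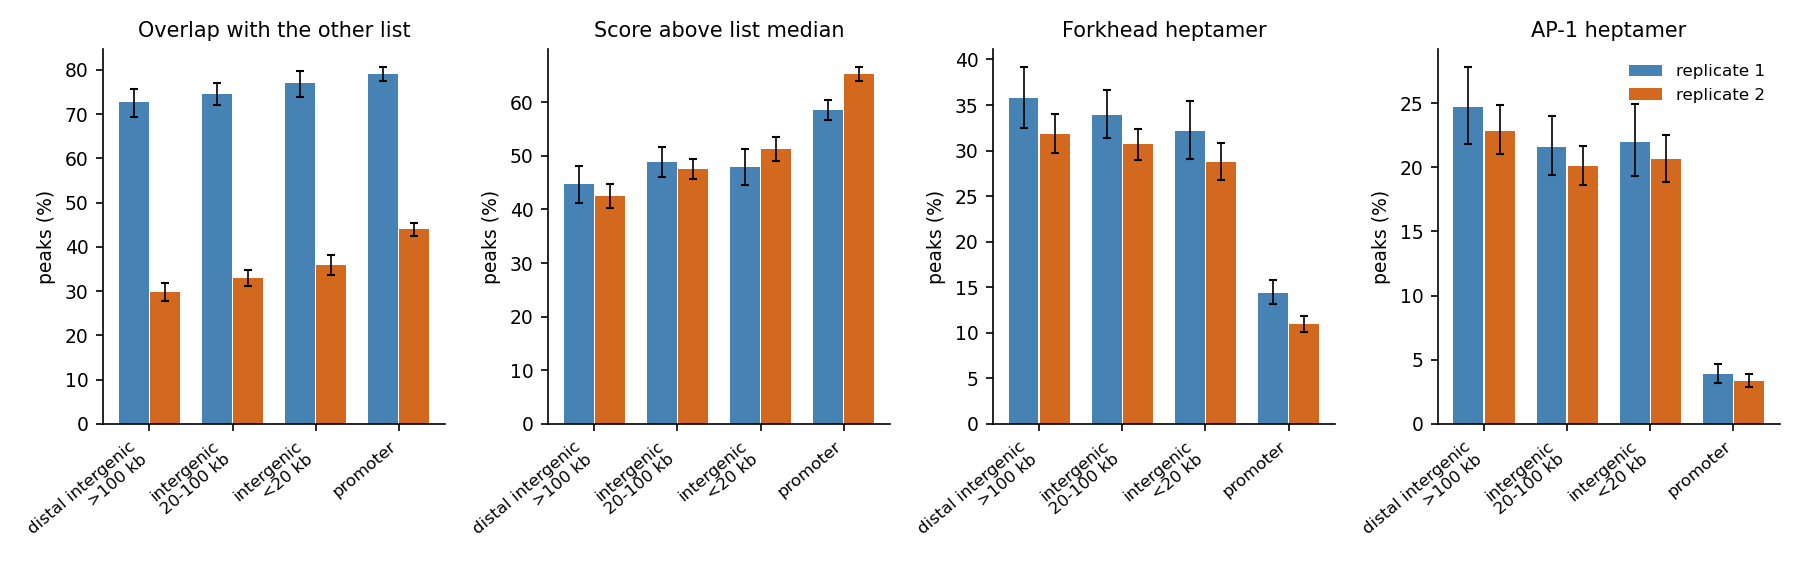
Bars give the share of peaks (percent) in 4 classes that overlapped the other replicate's list, scored above their list median, or held the forkhead heptamer TGTTTAC or the AP-1 heptamer TGACTCA within 100 bp of the centre, with Wilson 95% intervals. Distal peaks stood below promoter peaks in overlap and score, and above them in both heptamers, with 35.8% against 14.4% for TGTTTAC in replicate 1.

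Within score quartiles of the list, the overlapped share of distal peaks rose with the score. It went in replicate 1 from 54.1% in the lowest quartile through 65.9% and 80.7% to 96.3% in the highest, and in replicate 2 from 4.27% through 16.0% and 42.2% to 72.9%. Combined over quartiles, the Mantel-Haenszel difference from promoter peaks was -1.72 percentage points in replicate 1 (Cochran-Mantel-Haenszel chi-square adjusted p = 0.385) and -1.08 in replicate 2 (adjusted p = 0.404). Against peaks at 20 to 100 kb it was -0.858 in replicate 1 (chi-square adjusted p = 0.681) and -0.135 in replicate 2 (adjusted p = 0.906). The gaps in single quartiles of replicate 1 ran in opposite directions: in the lowest quartile 54.1% of distal peaks and 46.3% of peaks at 20 to 100 kb were overlapped, and in the third 80.7% and 89.0%. Against peaks within 20 kb the combined difference was -3.48 in replicate 1 (chi-square adjusted p = 0.157) and -1.06 in replicate 2 (adjusted p = 0.463).

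**Figure D2:**
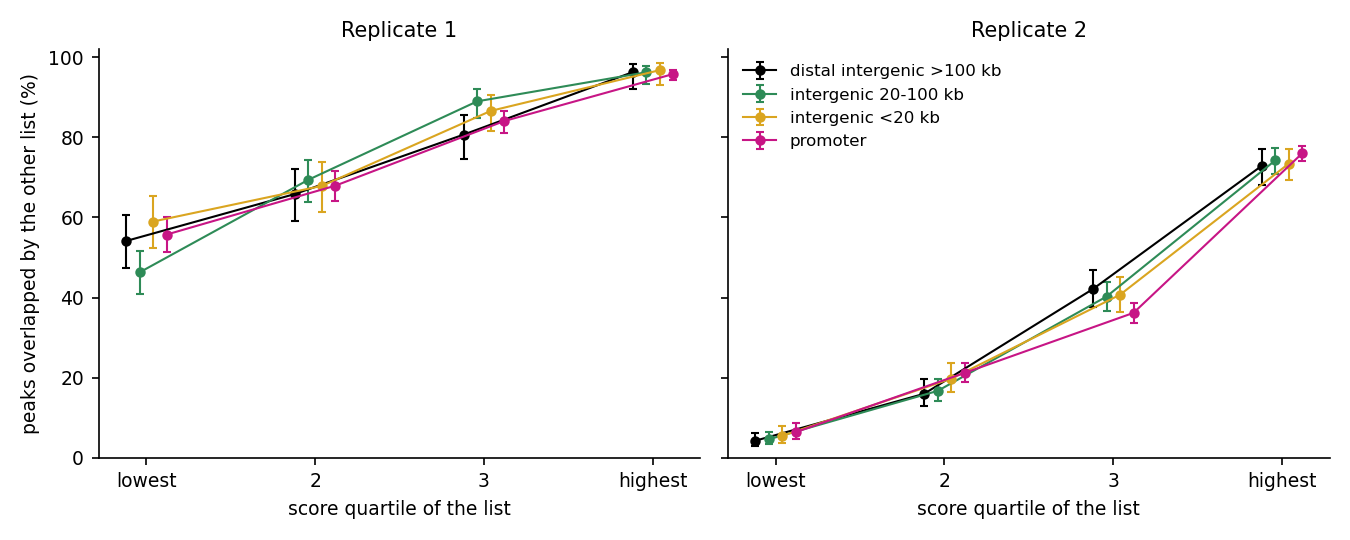
Points give the percent of peaks overlapped by the other replicate's list in each score quartile of the list (horizontal axis, lowest to highest), with Wilson 95% intervals, for 4 classes drawn as coloured lines. In both replicates the share rose with the score in every class, to 96.3% of distal peaks in the highest quartile of replicate 1 and 72.9% in replicate 2.

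The forkhead heptamer was the most frequent of the 7 motifs searched, and it was far more frequent in distal peaks than in promoter peaks. No motif searched holds another of the 7 whole. TGTTTAC lay on either strand within 100 bp of the centre of 281 of 786 distal peaks in replicate 1 (35.8%, Wilson 95% interval 32.5% to 39.2%) and of 590 of 1854 in replicate 2 (31.8%, 29.7% to 34.0%), beside 30.5% and 28.2% of all peaks. Equally long windows placed 2000 bp away on both sides of the distal peaks held it in 3.69% and 3.48% (odds ratios 14.5 and 13.0, Fisher's exact adjusted p = 1.19e-92 and 1.91e-184). The tests against flanks, here and below, did not use the pairing of each peak with its own flanking windows. The difference from peaks at 20 to 100 kb was 1.81 percentage points in replicate 1 (95% interval -2.44 to 6.11, Fisher's exact adjusted p = 0.452) and 1.15 in replicate 2 (-1.56 to 3.89, Fisher's exact adjusted p = 0.452). Against peaks within 20 kb the difference was 3.56 points in replicate 1 (-1.03 to 8.15, Fisher's exact adjusted p = 0.159) and 3.10 in replicate 2 (0.146 to 6.04, Fisher's exact adjusted p = 0.0596), and 3.99 and 3.94 points with score strata (chi-square adjusted p = 0.157 and 0.0266). Promoter peaks held it in 14.4% and 10.9%, so that distal peaks exceeded them by 21.4 and 20.9 points (odds ratios 3.31 and 3.81, Fisher's exact adjusted p = 3.97e-36 and 1.30e-84). With score quartiles as strata the differences from promoter peaks were 23.9 and 23.0 points.

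Copies of the forkhead heptamer were few and central. In replicate 1, 270 distal peaks held 1 copy and 11 held 2, and in replicate 2 the numbers were 564 and 26, with no peak above 2 copies. The central 20-bp bin held 9.16 and 9.55 copies per 100 distal peaks in replicates 1 and 2, against 0.408 and 0.377 per bin beyond 400 bp. The base after TGTTTAC was A in 55.8% of 292 copies in replicate 1 and 52.2% of 615 copies in replicate 2 that had this base inside the window, and G in 1.37% and 2.28%. In promoter peaks A followed 35.5% and 38.6% of copies and G 14.4% and 12.7%, while peaks at 20 to 100 kb lay nearer to distal peaks, with A after 47.8% and 47.4% and G after 4.46% and 4.72%. Distal peaks were poorer in G and C, with a median GC content of 41.3% and 40.8% within 100 bp of the centre against 63.2% and 63.7% in promoter peaks, and the part of base composition in this difference was not tested.

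The AP-1 heptamer came next among the motifs with a clear excess over flanking sequence. TGACTCA was in 194 of 786 distal peaks of replicate 1 (24.7%, Wilson 95% interval 21.8% to 27.8%) and 424 of 1854 of replicate 2 (22.9%, 21.0% to 24.8%), beside 16.4% and 16.6% of all peaks. Flanking windows held it in 2.99% and 2.80% (odds ratios 10.6 and 10.3, Fisher's exact adjusted p = 8.02e-57 and 1.35e-120), and promoter peaks in 3.88% and 3.36%. Against peaks at 20 to 100 kb, distal peaks were higher by 3.08 points in replicate 1 (95% interval -0.683 to 6.92, Fisher's exact adjusted p = 0.143) and by 2.77 points in replicate 2 (0.367 to 5.21, Fisher's exact adjusted p = 0.0380). Against peaks within 20 kb the differences were 2.67 and 2.24 points (Fisher's exact adjusted p = 0.256 and 0.133). The excess over peaks at 20 to 100 kb therefore passed the threshold in 1 of the 2 lists. It fell to 1.09 points in replicate 2 and turned to -0.999 in replicate 1 when the window was narrowed to 50 bp of the centre, and neither of these passed.

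The AP-1 heptamer was spread more widely around the centre than the forkhead heptamer. Its central 20-bp bin held 3.44 and 2.91 copies per 100 distal peaks, and its highest bins lay 60 bp from the centre in replicate 1 and 40 bp in replicate 2. Beyond 400 bp it was found at 0.355 and 0.362 copies per bin. The AP-1 heptamer was thus lower at the very centre and broader than the forkhead heptamer.

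**Figure D3:**
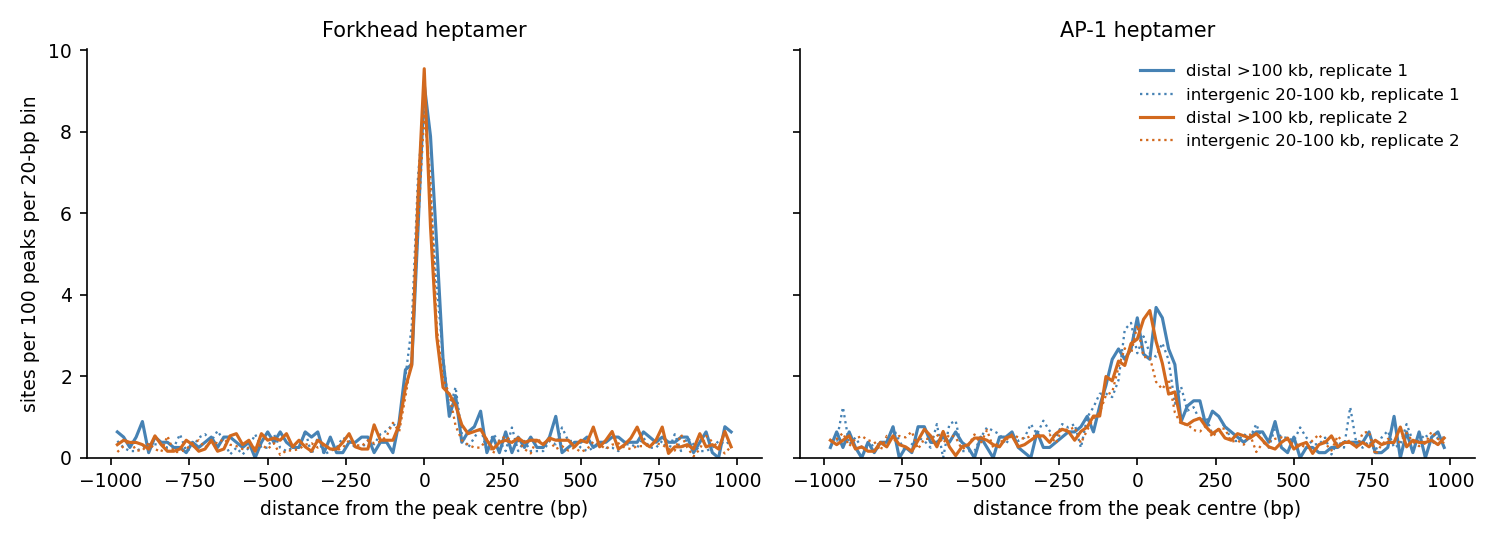
Lines give copies per 100 peaks in 20-bp bins of distance from the peak centre (bp), on either strand, for the forkhead heptamer TGTTTAC and the AP-1 heptamer TGACTCA, in distal peaks (solid) and intergenic peaks at 20 to 100 kb (dotted) of both replicates. The forkhead heptamer reached 9.16 and 9.55 in the central bin of distal peaks, and the AP-1 heptamer formed a lower and broader mound.

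The TEAD, RUNX and C/EBP motifs were more frequent in distal peaks than in promoter peaks, and the part of base composition in this was not tested. The TEAD hexamer GGAATG was in 21.8% and 19.7% of distal peaks of replicates 1 and 2, beside 16.7% and 16.3% of all peaks, with 10.4% and 12.2% in flanking windows (odds ratios 2.39 and 1.77, Fisher's exact adjusted p = 9.63e-13 and 5.33e-13) and 8.90% and 7.98% in promoter peaks (Fisher's exact adjusted p = 9.24e-20 and 4.87e-38). Peaks at 20 to 100 kb held it in 22.4% and 19.8% (Fisher's exact adjusted p = 0.813 and 0.940), and with the limit at 200000 bp the replicate 2 difference was -3.83 points (unadjusted Fisher's exact p = 0.00994). Wherever the limit was moved, here and below, the class at 20 to 100 kb ran from 20 kb to the new limit. The RUNX octamer TGTGGTTT was in 4.83% and 5.18% of distal peaks, beside 3.19% and 3.41% of all and 0.886% and 0.815% of promoter peaks (Fisher's exact adjusted p = 1.22e-10 and 2.12e-25). Flanking windows held it in 1.59% and 1.70% (odds ratios 3.14 and 3.16, Fisher's exact adjusted p = 1.43e-05 and 3.62e-12). In replicate 2 the share in distal peaks was 1.70 points above peaks at 20 to 100 kb (Fisher's exact adjusted p = 0.0103), though -0.113 with the limit at 200000 bp and 0.671 with lists of equal length, while in replicate 1 the difference was 0.447 points (95% interval -1.39 to 2.46, Fisher's exact adjusted p = 0.700). The C/EBP octamer TTGCNNAA was in 13.7% and 13.6%, beside 10.4% and 10.9% of all peaks, and did not differ past the threshold from the flanks, which held it in 11.6% and 12.5% (Fisher's exact adjusted p = 0.156 and 0.264). Promoter peaks held it in 5.43% and 5.95% (Fisher's exact adjusted p = 8.04e-13 and 3.46e-22), and peaks at 20 to 100 kb in 13.5% and 11.3% (Fisher's exact adjusted p = 0.911 and 0.0321). The replicate 2 difference of 2.31 points from the latter fell to 0.0289 with lists of equal length and to 1.93 with the limit at 200000 bp, and neither passed.

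ETS and CTCF letters were rare in distal peaks. The ETS heptamer CCGGAAG was in 5 distal peaks of replicate 1 (0.636%) and 10 of replicate 2 (0.539%), beside 5.69% and 4.9% of all peaks and 18.0% and 18.4% of promoter peaks (Fisher's exact adjusted p = 7.98e-50 and 1.97e-117 against promoters). A stretch of the CTCF site, AGNNGGCGC, was in 4 and 12 distal peaks (0.509% and 0.647%), beside 3.88% and 3.66% of all peaks. It was less frequent than in peaks at 20 to 100 kb, which held it in 1.82% and 1.40% (Fisher's exact adjusted p = 0.0233 and 0.0325). The replicate 1 difference of -1.31 points shrank to -0.422 with the limit at 50000 bp, to -0.970 at 200000 bp and to -0.671 among the higher-scoring 50%, and none of these passed. In replicate 2 the difference of -0.750 no longer passed at 200000 bp (-0.659) or with lists of equal length (-0.751). Both motifs are rich in G and C, and the part of base composition was not tested. A match of these letters is a description of sequence, and no bound factor was measured other than FOXK2.

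Distal peaks with a forkhead heptamer were found again more often than those without one. In replicate 1, 80.4% of the 281 holders overlapped a replicate 2 peak against 68.3% of the 505 others (odds ratio 1.91, Fisher's exact adjusted p = 0.000591, over 10 tests within distal peaks), and 52.7% against 40.2% scored above the list median (Fisher's exact adjusted p = 0.00195). In replicate 2, 36.9% of 590 holders overlapped against 26.4% of 1264 others (odds ratio 1.63, Fisher's exact adjusted p = 2.88e-05), and 46.4% against 40.7% scored above the median (Fisher's exact adjusted p = 0.0255). For the AP-1 heptamer the overlap difference was 5.52 points in replicate 1 (95% interval -1.80 to 12.1, Fisher's exact adjusted p = 0.154) and 6.65 points in replicate 2 (1.66 to 11.8, Fisher's exact adjusted p = 0.0133). The share above the list median differed by 3.67 points in replicate 1 (Fisher's exact adjusted p = 0.406) and by 11.9 points in replicate 2 (Fisher's exact adjusted p = 5.41e-05). These tests within distal peaks were chosen after the values were known.

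The heptamers were found together less often than apart. Among forkhead holders, 18.9% also held the AP-1 heptamer in replicate 1, against 27.9% of other distal peaks (odds ratio 0.600, Fisher's exact adjusted p = 0.00942), and 14.7% against 26.7% in replicate 2 (odds ratio 0.476, Fisher's exact adjusted p = 7.14e-08). The 53 and 87 distal peaks with both heptamers had median score percentiles of 64.0 and 69.9 within their lists, and 90.6% and 55.2% of them overlapped the other list. Peaks with neither heptamer numbered 364 (46.3%) and 927 (50%), with overlapped shares of 67.0% and 25.2%. Peaks with both heptamers were few but were among the stronger ones. These counts were taken in distal peaks alone, without the share over all peaks, and are not read as particular to distal peaks. By score quartile, the forkhead heptamer was in 29.8% of distal peaks in the lowest quartile and 54.0% in the highest in replicate 1, and in 30.8% and 40.5% in replicate 2.

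Distal peaks seen in 1 list only were weaker. The 215 such peaks of replicate 1 had a median score of 4.72 against 6.23 for the 571 overlapped ones, and held the forkhead heptamer in 25.6% against 39.6%. The 1302 such peaks of replicate 2 had a median of 5.65 against 10.7, and held it in 28.6% against 39.5%. Outside chromosome 8, the strongest peak found only in replicate 1 lay 273 kb upstream of NR2F2 with a score of 9.81, and the strongest found only in replicate 2 was named for LOC730338, with a score of 27.2. The NR2F2 peak, at chr15:96053219-96053429, lay beside a stronger replicate 1 peak at chr15:96053805-96054015 that was found in both lists. The NR2F2 and LOC730338 peaks were named after their values were seen.

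Paired distal peaks had related scores in both replicates. Of the 571 overlapped distal peaks of replicate 1, 539 had a partner that was itself a distal peak by the rule, and the other 32 had a partner annotated to a repeat or CpG island. Over the 539 pairs Spearman's rho of the scores was 0.813, beside 0.852 over all 9343 overlapping pairs of the lists, a description across peaks, and centres lay a median of 30 bp apart (quartiles 11.5 and 58). Both peaks scored above their list median in 283 pairs (52.5%) and both were above the 90th percentile of their list in 54 (10.0%). In the replicate 2 window, 211 pairs (39.1%) held the forkhead heptamer, 141 (26.2%) held the AP-1 heptamer and 230 (42.7%) held neither. Of the 100 pairs with the best mean percentile, 54 held the forkhead heptamer and 30 the AP-1 heptamer.

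**Figure D4:**
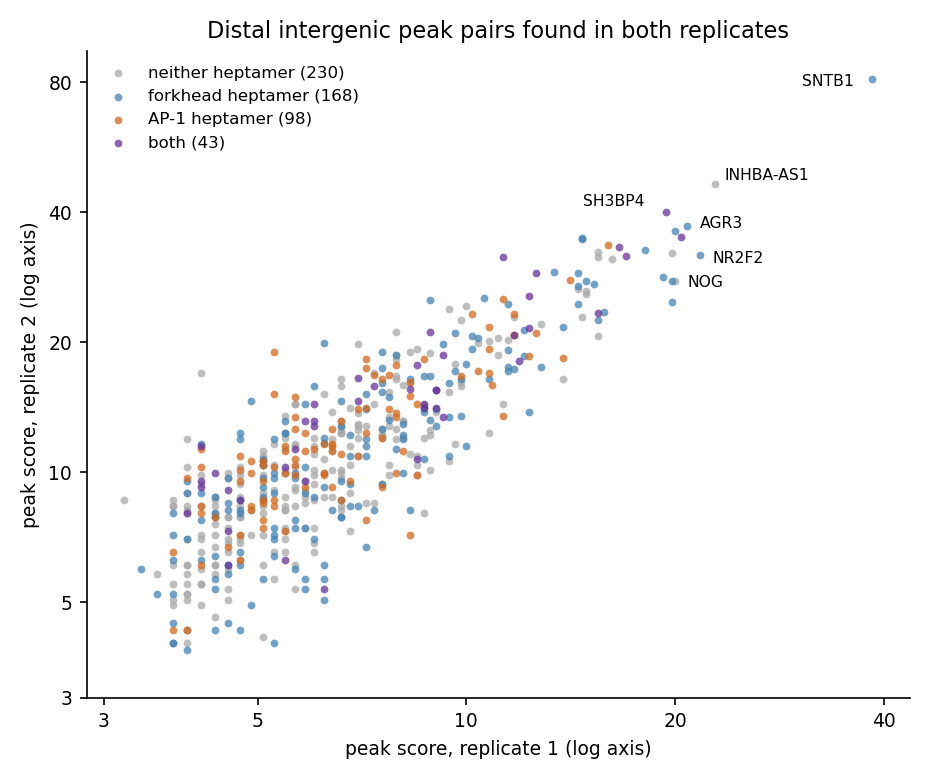
Each point is 1 of 539 pairs of distal peaks found in both replicates, with its replicate 1 score on the horizontal and its replicate 2 score on the vertical axis (both log axes), coloured by the heptamers within 100 bp of the replicate 2 centre. The scores rose together (Spearman's rho 0.813), and the SNTB1 pair at 38.5 and 81.2 stood farthest to the upper right.

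The 10 strongest pairs outside chromosome 8 had scores of 18.1 to 22.8 in replicate 1 and 27.7 to 46.4 in replicate 2, and 7 of them held the forkhead heptamer in both windows. The first lay at -113473 bp from the TSS of INHBA-AS1, an antisense RNA gene at the locus of the inhibin and activin subunit INHBA, with scores of 22.8 and 46.4 at ranks 189 and 181. It held neither heptamer. The pair upstream of AGR3, a protein disulfide isomerase family gene, scored 20.8 and 37.2 at ranks 247 and 319 with the forkhead heptamer. The pair upstream of SH3BP4, an adaptor gene of endocytosis, scored 19.4 and 40, and that named for ABCA8, a lipid transporter gene, 20.4 and 35.1. These last pairs held both heptamers. The pair 272018 bp upstream of NR2F2, which encodes the nuclear receptor COUP-TFII, scored 21.7 and 31.8 at ranks 227 and 468.

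The others of the 10 were named for ZFP64, a zinc finger gene (20 and 36.1), LINC01449 (19.8 and 32.1), MIR4268 (18.1 and 32.7), NOG, which encodes the secreted BMP antagonist noggin (20 and 27.7), and OSR1, a zinc finger regulator of mesoderm and kidney development (19.8 and 27.7). The LINC01449 and NOG pairs held neither heptamer. The pairs with the AP-1 heptamer alone numbered 76 outside chromosome 8. Of these 76, the strongest was named for GALNT15, an enzyme of mucin-type O-glycosylation, with scores of 16.0 and 33.6. It was followed by the pair named for the pseudogene EIF3IP1, with 12.6 and 21.0, and that for NUDT7, a peroxisomal coenzyme A hydrolase, with 11.7 and 23.2.

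Distances ran far beyond the limit. The median distance to the nearest TSS was 191 kb in replicate 1 (quartiles 130 and 311 kb) and 192 kb in replicate 2 (133 and 305 kb). The farthest peak of replicate 1 lay 2267 kb from ZNF733P with a score of 3.96, and that of replicate 2 lay 1508 kb from LINC01099 with a score of 11.2, and neither overlapped the other list. The farthest pair found in both lists lay 1279 kb upstream of CDH8, a cadherin gene, with scores of 6.6 and 8.63 and 2 forkhead heptamers in both windows. The next 4 were named for NR2F1-AS1 at 1019 kb (5.47 and 8.18) and at 930 kb (4.9 and 8.18, an overlap of 12 bp only), CNTNAP5 at 948 kb (4.72 and 11.9) and PABPC1P2 at 894 kb (6.23 and 19.9). Beyond 1000 kb, 2 of 10 and 2 of 13 distal peaks were overlapped.

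Just inside and just outside the limit the values were these. At 100 to 110 kb there were 75 and 161 distal peaks in replicates 1 and 2, with median scores of 5.47 and 7.14, overlapped shares of 70.7% and 29.8% and the forkhead heptamer in 30.7% and 31.1%. At 90 to 100 kb there were 77 and 190 intergenic peaks, with median scores of 5.66 and 6.84, overlapped shares of 79.2% and 33.2% and the heptamer in 45.5% and 34.7%. Among distal peaks, those at 100 to 200 kb numbered 402 and 968, those at 200 to 500 kb 300 and 702, and those beyond 500 kb 84 and 184, of which 64.3% and 29.3% were overlapped. Of all distal peaks, 50.4% and 50.3% lay upstream of the nearest TSS, while 62.3% and 61.2% of those at 20 to 100 kb did.

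A different set of gene models placed starts much nearer to most of these peaks. In GENCODE release 44, which is also on hg38, 15.1% of distal peaks in replicate 1 and 17.9% in replicate 2 had no transcript start of any kind within 100 kb, and the median distance to the nearest one was 35.7 and 37.7 kb. For protein-coding genes alone, 87.4% and 87.8% had no start within 100 kb, with medians of 210 and 213 kb. A distance beyond 100 kb from a RefSeq start is the rule that chose these peaks. The name gene desert held for most of them against GENCODE protein-coding genes and for few against all GENCODE transcripts, and they are called distal intergenic peaks here. The centre lay inside a long noncoding RNA gene for 207 (26.3%) and 507 (27.3%) of them, inside a protein-coding gene for 33 (4.20%) and 99 (5.34%), and within 1000 bp of a transcript start for 33 (4.20%) and 59 (3.18%).

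**Figure D5:**
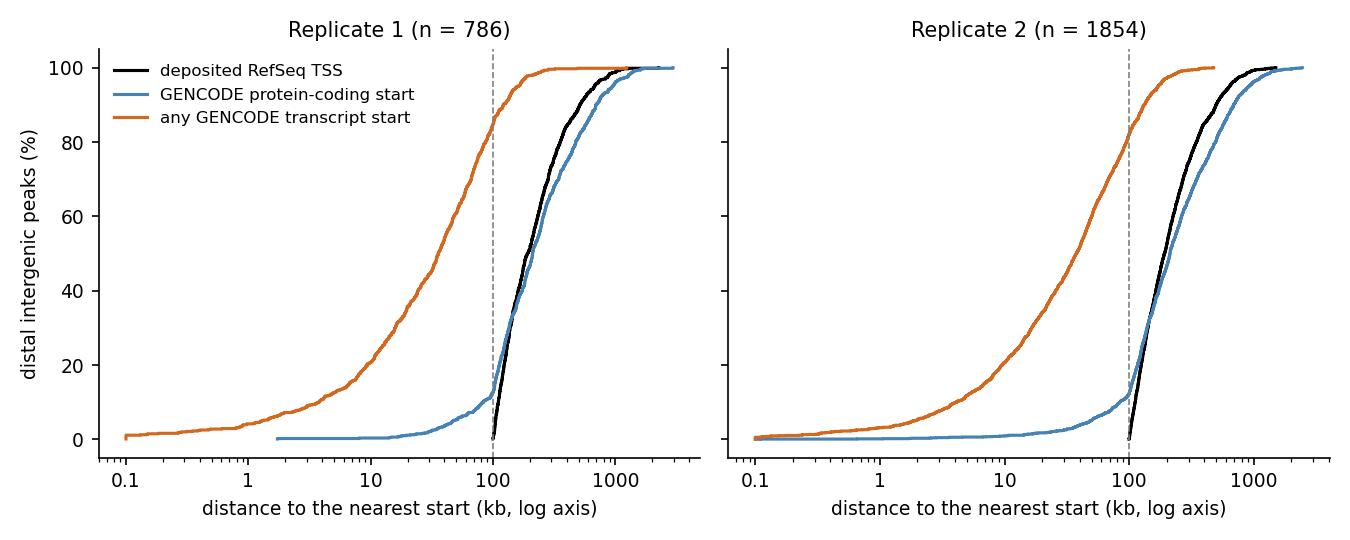
Curves give the cumulative percent of distal peaks against distance in kb (log axis) to the nearest RefSeq TSS of the deposited annotation, the nearest GENCODE protein-coding start and the nearest GENCODE transcript start of any type, in each replicate, with distances under 0.1 kb drawn at 0.1 and a dashed line at 100 kb. Any GENCODE start lay a median of 35.7 and 37.7 kb away, and a protein-coding start 210 and 213 kb away.

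Distal peaks were unevenly spread over chromosomes. Chromosome 2 held the most, 103 and 209, while chromosome 19, which is rich in genes, held 1 and 2. Per Mb of sequence, chromosome 2 held 0.425 and 0.863 and chromosome 19 held 0.0171 and 0.0341. In replicate 2 chromosomes 6 and 4 held more per Mb than chromosome 2, at 0.984 and 0.878. They made up 10.8% of the peaks of chromosome 8 in both replicates, 9.37% and 11.6% on chromosome 4 and 9.74% and 9.99% on chromosome 13. The 60 distal peaks of chromosome 8 in replicate 1 had a median score of 8.30 against 5.47 for the 726 others, and 54 of them (90%) were above the list median against 40.9% of the others. In replicate 2 the 122 of chromosome 8 had a median of 10.9 against 6.39, and 94 (77.0%) were above the median against 40.1%. Over all peaks, 49.3% of each list scored above its median. Distal peaks of chromosome 8 thus stood higher than other distal peaks in both lists, and the cause was not tested. The share over all chromosome 8 peaks is not given here, so this is not read as particular to distal peaks. Without chromosome 8, and with the median taken anew, the share of replicate 1 distal peaks above the median differed from that at 20 to 100 kb by -6.56 points (unadjusted Fisher's exact p = 0.00569). With chromosome 8 the difference was -4.18 points (unadjusted Fisher's exact p = 0.0734).

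Distal peaks lay at wide and varied spacings. The nearest other distal peak was a median of 218 kb away in replicate 1 and 80.6 kb in replicate 2, and 77 (9.80%) and 280 (15.1%) had one within 12.5 kb. Peaks at 20 to 100 kb were 330 and 102.3 kb from the nearest of their own class, with 10.4% and 19.6% within 12.5 kb. Counting peaks of any class, the nearest neighbour of a distal peak was a median of 87.1 and 39.4 kb away, and 13.0% and 20.6% had one within 12.5 kb. For peaks at 20 to 100 kb the nearest neighbour of any class was 43.7 and 24.3 kb away, with 16.9% and 29.5% within 12.5 kb. Stitched over 12.5 kb, the distal peaks of both lists formed 14 runs with at least 3 replicate 2 peaks, holding 44 of them (2.37%). This count depended on the stitching distance, with 1 run (0.162% of replicate 2 distal peaks) at 5000 bp and 88 runs holding 307 peaks (16.6%) at 50000 bp. The run near GALNT15 on chromosome 3 held 3 peaks of each list within 22810 bp, and all 3 of replicate 1 overlapped the other list, with top scores of 16.0 and 33.6. The run upstream of RUNX1, the transcription factor of blood development, held 2 and 3 peaks at 207 to 216 kb, with top scores of 5.47 and 15.2. The 5 largest runs were taken by their peaks of both lists together, and the other 3 were named for MIR2054, VAPA and CCT6B, with top scores in replicate 2 of 7.44, 9.37 and 14. The CCT6B run held 3 peaks of replicate 1 and 2 of replicate 2, and so is not one of the 14.

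The nearest genes of distal peaks numbered 569 of 8359 genes named in the replicate 1 list (6.81%) and 1061 of 13887 in the replicate 2 list (7.64%). For 56.5% and 53.8% of distal peaks the nearest gene was protein-coding, against 75.2% and 73.9% of all peaks, and for 39.4% and 42.6% it was a noncoding RNA gene. The 539 pairs fell to 422 genes, of which 332 had 1 pair, 72 had 2, 13 had 3, 4 had 4 and 1 had 7. The gene with 7 pairs was the pseudogene PABPC1P2 on chromosome 2, with 10 distal peaks in each list at up to 894 kb and best scores of 10.8 and 19.9. SNTB1, MIR8068, LINC01605 and WDR11-AS1 had 4 pairs each, and the SNTB1 and LINC01605 pairs were on chromosome 8. The next by the same order, with 3 pairs each, were SH3BP4, MIR4268, MED30, which encodes a Mediator subunit, EIF3IP1 and TRPS1, which encodes a GATA-type zinc finger repressor. The MED30 and TRPS1 pairs were also on chromosome 8.

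Developmental transcription factor genes were among the nearest genes of distal peaks. Of a list of 78 such genes, 41 were named at all in replicate 1 and 12 of those (29.3%) had a distal peak, against 6.81% of all named genes, and in replicate 2 the numbers were 50 and 17 (34.0%), against 7.64%. A gene with long flanking sequence can collect more distal peaks, and the length of that sequence was not set against these counts. Of 40 genes of the list named in both replicates, 10 (25%) had a pair found in both lists, beside 422 of 7615 such genes in all (5.54%). TBX3, a T-box repressor, had 3 pairs, the best 230 kb upstream with scores of 7.36 and 15.8 and both heptamers in the replicate 2 window. NR2F2 had 2 pairs, as did FOXP1, itself a forkhead factor (best scores 7.92 and 18.3), GATA6, an endoderm regulator (6.6 and 16.4), and KLF4, a pluripotency factor (5.85 and 12.3). MECOM (8.11 and 13.1), SIX2 (6.6 and 12.8), GATA3 (3.96 and 8.92) and TBX18 (3.77 and 5.21) had 1 pair each. The NR2F2 pair alone stood among the 10 strongest, and the best pairs of the other genes named here had score percentiles of 3.87 to 74.2 in replicate 1 and 24.5 to 92.6 in replicate 2.

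A list of unfolded protein response genes, stemness factors and other genes close to the study's subject was also looked up among the nearest genes of distal peaks. Of its 19 genes, 1 of the 12 named in replicate 1 and 2 of the 15 named in replicate 2 had one (8.33% and 13.3%). The one in replicate 1 was KLF4, which is also on the developmental list above and is not a gene that the study names, and no other gene of the 19 had a pair found in both lists. Of 28 genes of AP-1 and epithelial signalling, 1 of 19 and 2 of 23 had a distal peak (5.26% and 8.70%), and none had a pair in both lists. Counts this small allow no order between these shares and the 6.81% and 7.64% of all named genes.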

How the data were processed

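FOXK2 ChIP-seq of OVCAR-5 cells was analysed from the annotated peak lists of 2 biological replicates. According to the methods, the authors used Bowtie2 2.2.6 to align single-end reads to hg38 and called peaks with HOMER 4.10, and the settings of the peak caller are not given in the sources used here. Each deposited list holds a peak score, which HOMER scales to the library, and a focus ratio, deposited as a fraction of tags on the expected side of the centre, whose median in distal peaks was 0.761 and 0.758. Depth is known only through the score steps, and the total tags per library were not used here. The lists were used whole. The reads, the input libraries, H3K27Ac and RNA-seq were not analysed here, and no enrichment over input could be given.

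Members, gene lists and tests were chosen with earlier results of these data known. Distal peaks were compared with 3 classes by overlap of at least 1 bp, score above the list median and 7 motifs on both strands within 100 bp of the centre, with two-sided Fisher's exact tests at a threshold of 0.05 after Benjamini-Hochberg adjustment over 54 comparisons (42 for flanking windows 2000 bp away, 18 for score strata). Shares carry Wilson 95% intervals and differences Newcombe intervals. Named regions were the 10 strongest pairs outside chromosome 8 by mean score percentile, the 5 farthest, the 3 strongest with TGACTCA alone, the 5 largest runs, the 10 genes with most pairs, and list genes with a pair, of which 1 is not reported here. Alternatives changed the distance limit, repeats, chromosomes, score threshold, list length, overlap rule, motif window, stitching and gene models; the shift of 10000 bp and the alternatives for the other motifs were added after the data had been seen. The scripts for overlap, motifs and strata were first tested on simulated data. The tools were samtools 1.23.1 and Python 3.11.15 with the packages pysam 0.24.0, pandas 2.3.3, scipy 1.17.1, numpy 2.4.6 and matplotlib 3.10.9.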

Additional observations from a re-analysis of the deposited data

How the results depend on the processing

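No paired analysis was possible because the results compare peaks within 1 list and the input libraries that share the replicate numbers were not analysed here. Calls here use the unadjusted Fisher's exact p, or with score strata the unadjusted Cochran-Mantel-Haenszel chi-square p. Of 86 alternatives to the main comparisons, 61 kept the direction and the side of the threshold, or stayed within 1.5 times for a count. Against promoter peaks, the differences in score and both heptamers kept direction and call under every alternative run, while that in overlap no longer passed with score strata (-1.72 and -1.08 in replicates 1 and 2) or, in replicate 2, with lists of equal length (-0.479). All values below are percentage points against intergenic peaks at 20 to 100 kb unless named. With the limit at 50000 or 200000 bp, that class ran from 20 kb to the new limit, so peaks moved between the classes. The overlap difference in replicate 1 passed among the higher-scoring 50% (-5.32). In replicate 2 (main -3.15) it no longer passed with the limit at 50000 bp (-2.14) or 200000 bp (-2.45), among the higher-scoring 50% (-4.02) or with score strata (-0.135), and turned positive with lists of equal length (0.664). The score difference in replicate 1 passed with repeats included (-3.75) and without chromosome 8 (-6.56), and in replicate 2 no longer passed among the higher-scoring 50% (-3.10) or at equal length (-2.88). For TGTTTAC in replicate 2 it passed beyond 200000 bp (3.79) and turned negative among the higher-scoring 50% (-0.496) and at equal length (-0.677). For TGACTCA it passed in replicate 1 with repeats included (3.41) and turned negative within 50 bp of the centre (-0.999), and in replicate 2 no longer passed beyond 200000 bp (2.67) or within 50 bp (1.09). Against peaks within 20 kb, the overlap difference in replicate 1 (main -4.28) passed under 5 of 10 alternatives: the limit at 200000 bp (-6.35), repeats (-4.21), without chromosome 8 (-4.61), 50% overlap (-5.29) and centres within 100 bp (-5.83). In replicate 2 (main -6.08) it no longer passed among the higher-scoring 50% (-2.30) or with score strata (-1.06), and turned positive at equal length (0.990). The score difference from these peaks passed in replicate 1 with repeats (-4.55) and without chromosome 8 (-5.87), and in replicate 2 (main -8.78) no longer passed among the higher-scoring 50% (-3.40) or at equal length (-3.24). TGTTTAC passed against them in replicate 1 beyond 200000 bp (6.61) and with repeats (5.30), and in replicate 2 (main 3.10) no longer passed among the higher-scoring 50% (1.65), at equal length (0.845) or within 50 bp (2.47). TGACTCA passed against them in replicate 2 with repeats (2.32) and score strata (3.08, though not after adjustment, chi-square adjusted p = 0.0589). It turned negative in replicate 1 within 50 bp (-0.712). For GGAATG against peaks at 20 to 100 kb, the difference was -3.83 in replicate 2 with the limit at 200000 bp, past the threshold, and -4.57 in replicate 1 among the higher-scoring 50%, not past it (main -0.108 and -0.595). Smaller differences of other motifs from peaks at 20 to 100 kb turned sign, and none that did passed the threshold: GGAATG beyond 50000 bp (1.14 and 1.45 in replicates 1 and 2) and with repeats (0.738 and 0.358), TGTGGTTT beyond 200000 bp (-0.814 and -0.113), CCGGAAG beyond 50000 bp in replicate 1 (0.461), and TTGCNNAA among the higher-scoring 50% (-1.19 and -0.204). The cause of these changes was not tested. Merging both lists gave 2101 regions, 31.7% with TGTTTAC, and 786 to 1854 regions with 31.8% to 35.8% when either replicate was left out. Runs of at least 3 replicate 2 peaks numbered 14 at 12.5 kb, 1 at 5000 bp and 88 at 50000 bp. With protein-coding genes only, 4.20% and 5.34% of centres lay inside a gene, against 30.9% and 33.0% with all, and 87.4% and 87.8% had no start within 100 kb. The lowest scores of the lists rest on 16 and 21 tags, and those of distal peaks on 17 and 22, which limits what the weakest peaks can show.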
